A study of Drosophila melanogaster with 12 samples.

Results

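Transcript levels of 10 Drosophila genes for lipoprotein uptake, fatty acid synthesis and fat storage were followed in BG3 cells after RNAi against Rad21 or Nipped-B. The genes are the lipophorin receptors LpR1 and LpR2, SREBP, FASN1, ACC, Desat1, Acsl, bmm, Lsd-1 and Lsd-2. LpR1 was chosen by its log2 level on these arrays, which fell strongly with both knockdowns, and the other 9 genes because they belong to the same biology. The fall of LpR1 is therefore given as a description, without a test. Together the 10 genes have 11 probe sets of their own among 18769 on the array, and all 10 genes passed the filter that kept 7350 probe sets of 5928 named genes and of unnamed features.

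BG3 cells (ML-DmBG3) are a cultured line derived from the larval central nervous system of Drosophila melanogaster. Rad21 is a subunit of the cohesin ring that holds sister chromatids together, and Nipped-B loads cohesin onto chromosomes. Each of 3 treatments, mock, Rad21 RNAi and Nipped-B RNAi, had 4 arrays. Cells of replicates 1 and 2 were taken at day 3, those of replicate 3 at day 4, and those of replicate 4 at day 6. Mock cells received 0 µg of double-stranded RNA (dsRNA), whereas in both knockdowns the amount was 40 µg for the day 3 arrays and 10 µg for the later ones. The dose and the day of harvest therefore cannot be told apart, and no array had a dsRNA against an unrelated target. All cells, mock included, were kept in medium with serum and insulin, and the labels say that dsRNAs in equal amounts were mixed for each target.

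The RNA was hybridised to Affymetrix Drosophila Genome 2.0 arrays, and the deposited values are log2 expression after GCRMA, which corrects each probe for background by its base content and gives all arrays the same distribution. A difference of 1 on this scale is a doubling, and probe sets without signal sit a little above log2 2. Levels of different probe sets cannot be set against each other. Tested probe sets had a median between 9.33 and 9.41 on each array, and arrays of the same treatment correlated with r of at least 0.962. The probe set of Nipped-B itself lay between 2.27 and 2.29 on all 12 arrays, at background, and gives no check of that knockdown. Rad21 was not analysed here. None of the 8 measured fat body markers reached log2 4 on any array, among them the yolk protein genes and Lsp2. Of the neuron markers 6 of 8 stayed under log2 4, including nSyb and brp, while elav was at 8.38 ± 0.55 and cpx at 10.61 ± 0.58 in mock cells (SD, n = 4). Of the other markers, 5 of 7 for neuroblasts and 2 of 7 for glia stayed under log2 4. In mock cells the glial regulator repo was at 4.61 ± 0.46 and wrapper at 4.90 ± 0.41 (SD, n = 4). The glial markers loco, nrv2 and moody were at 11.10 ± 0.17, 11.99 ± 0.21 and 12.87 ± 0.15 in mock cells (SD, n = 4).

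In insects, lipids travel through the haemolymph on lipophorin, a lipoprotein whose protein core is encoded by apolpp, and cells take up the lipid through lipophorin receptors of the low density lipoprotein receptor family. Inside the cell, the transcription factor SREBP turns on the enzymes that build fatty acids, and the fatty acids are stored as triglyceride in droplets coated by the perilipins Lsd-1 and Lsd-2. The lipase bmm (brummer) releases them again. In the fly this system is best known from the fat body, the organ that stores fat, and from the oocyte and imaginal discs that draw on circulating lipid.

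LpR1 was the member with the largest difference between mock and knockdown cells. In mock cells its log2 level was 9.08 and 9.30 at day 3, 9.24 at day 4 and 8.01 at day 6. After Rad21 RNAi it was 5.15 and 5.29 at day 3, 6.05 at day 4 and 7.55 at day 6. After Nipped-B RNAi it was 6.58 and 6.10 at day 3, 5.26 at day 4 and 5.69 at day 6. All 8 knockdown arrays were below all 4 mock arrays, although the day 6 Rad21 array came within 0.46 of its mock counterpart.

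Averaged over day 3 and the later days, LpR1 differed from mock by -2.90 (SE 0.35) on the log2 scale with Rad21 RNAi, a level 7.45-fold lower, and by -3.00 (SE 0.35) with Nipped-B RNAi, a level 8.01-fold lower. These are the values for which the gene was chosen. Leaving out any array in turn kept the Rad21 difference between -3.27 and -2.52 and the Nipped-B difference between -3.31 and -2.69. By day, the level with Rad21 RNAi was 15.7-fold lower at day 3, 9.10-fold lower at day 4 and 1.38-fold lower at day 6. With Nipped-B RNAi it was 7.21-fold lower at day 3, 15.8-fold lower at day 4 and 5.00-fold lower at day 6. Days 4 and 6 have 1 array of each treatment, so the values of a single day carry no error. The mock arrays are the same in both comparisons, so the comparisons are not independent. A second probe set for LpR1 stayed at background, with a mean of 2.29 in each treatment, and gives no reading. In bulk RNA such as this, fewer cells expressing a gene and less RNA per cell cannot be told apart.

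**Figure D1:**
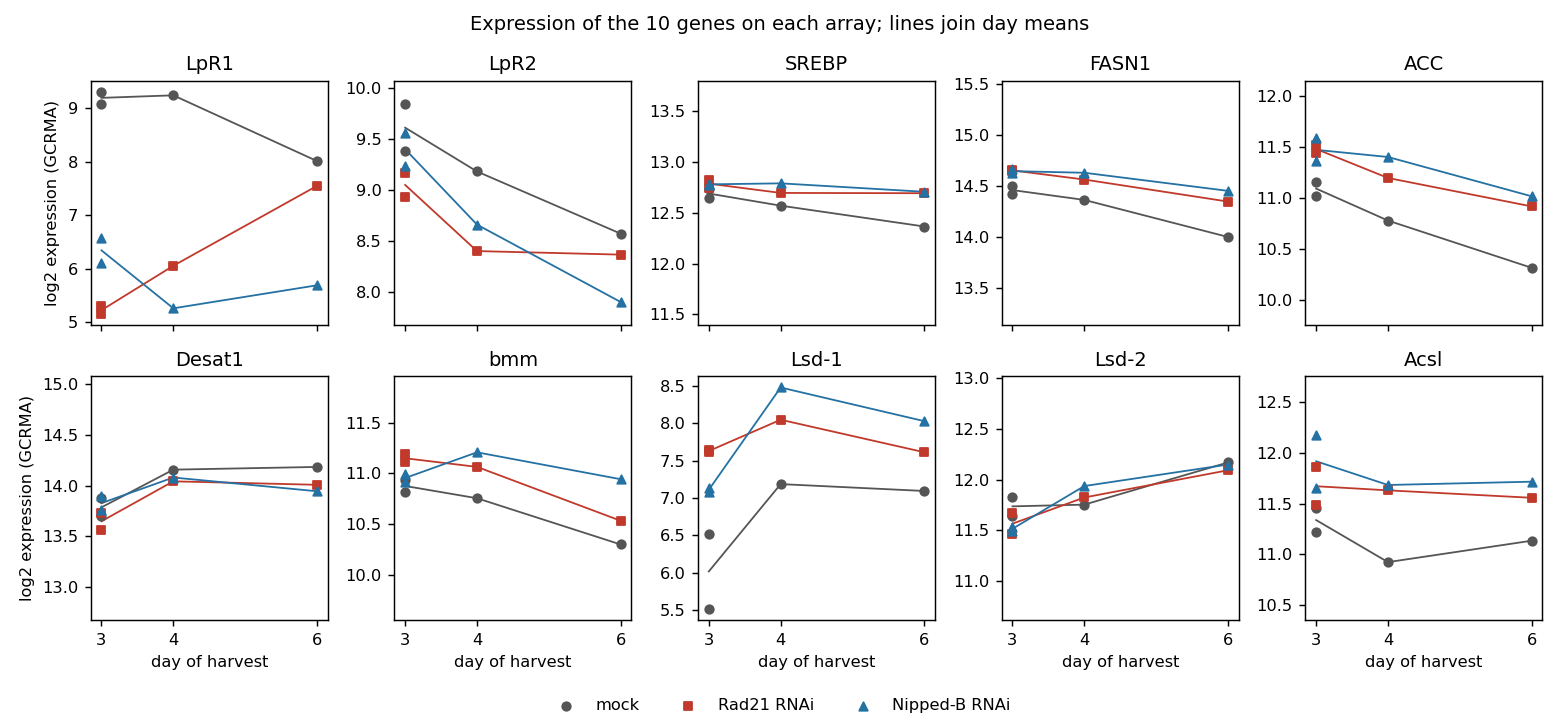
Log2 expression (vertical axis, GCRMA units) of the 10 genes against the day of harvest (horizontal axis), with 1 panel per gene, each on its own range. Grey circles are mock, red squares Rad21 RNAi and blue triangles Nipped-B RNAi arrays, and lines join the mean of the day 3 arrays to the single arrays of days 4 and 6. LpR1 with Rad21 RNAi climbs from 5.15 and 5.29 at day 3 to 7.55 at day 6, whereas with Nipped-B RNAi it is at 5.69 on day 6.

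LpR2 encodes the second lipophorin receptor and lies directly beside LpR1 on chromosome arm 3R, with no other protein-coding gene between them. Its log2 level in mock cells was 9.38 and 9.85 at day 3, 9.18 at day 4 and 8.57 at day 6. With Rad21 RNAi it was 8.93 and 9.17 at day 3, 8.40 at day 4 and 8.36 at day 6. With Nipped-B RNAi it was 9.24 and 9.56 at day 3, 8.66 at day 4 and 7.90 at day 6. In each of the 4 replicates the knockdown array was below its mock array, for both knockdowns, but the ranges overlapped those of mock. LpR2 fell by 0.53 (SE 0.20) with Rad21 RNAi, which passed (limma adjusted p = 0.0612), and its difference with Nipped-B RNAi was -0.40 (SE 0.20) and did not pass (limma adjusted p = 0.152). With the replicate number as a block, the Nipped-B value passed at an adjusted p of 0.035, as it did without mock replicate 4 or Nipped-B replicate 3. The Rad21 call was lost without any 1 of 5 arrays (mock replicates 2 and 3 and Rad21 replicates 1, 3 and 4).

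On the far side of LpR2, CLS, the cardiolipin synthase gene, fell by 0.27 with Rad21 RNAi (limma adjusted p = 0.0239) and differed by -0.15 with Nipped-B RNAi (limma adjusted p = 0.179). The next 3 genes in that direction are RpL27, a ribosomal protein gene, Idh3g, a subunit gene of mitochondrial isocitrate dehydrogenase, and CG4743. RpL27 differed by -0.10 with each knockdown, Idh3g by -0.51 with Rad21 RNAi and -0.49 with Nipped-B RNAi, and CG4743 by -0.48 and -0.43, and each passed. No gene in this stretch other than LpR1 itself differed by more than 0.53, and the 5 genes on the other side of LpR1 were not among those tested.

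Apart from LpR1, which was not tested against mock, 9 genes were tested in each comparison. The threshold was a Benjamini-Hochberg adjusted p of at most 0.1 over the 7350 tested probe sets. With Rad21 RNAi 5 of the 9 rose and 2 fell, where 27.3% of all tested probe sets rose and 24.1% fell. With Nipped-B RNAi 5 of the 9 rose and 0 fell, where 24.4% of all tested probe sets rose and 19.9% fell. The 5 that rose were the same in both knockdowns: SREBP, FASN1, ACC, Acsl and Lsd-1. The median difference over the 9 genes was 0.23 with Rad21 RNAi and 0.27 with Nipped-B RNAi, beside 0.04 and 0.05 over all tested probe sets. With so large a share of the array called in each direction, and genes picked in part with their values known, the counts describe these genes and nothing is read from them about the pathway. The count for Rad21 RNAi was 7 of 9, and it was 4 when mock replicate 2, Rad21 replicate 1 or Rad21 replicate 3 was left out, and with no filter on low values.

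**Figure D2:**
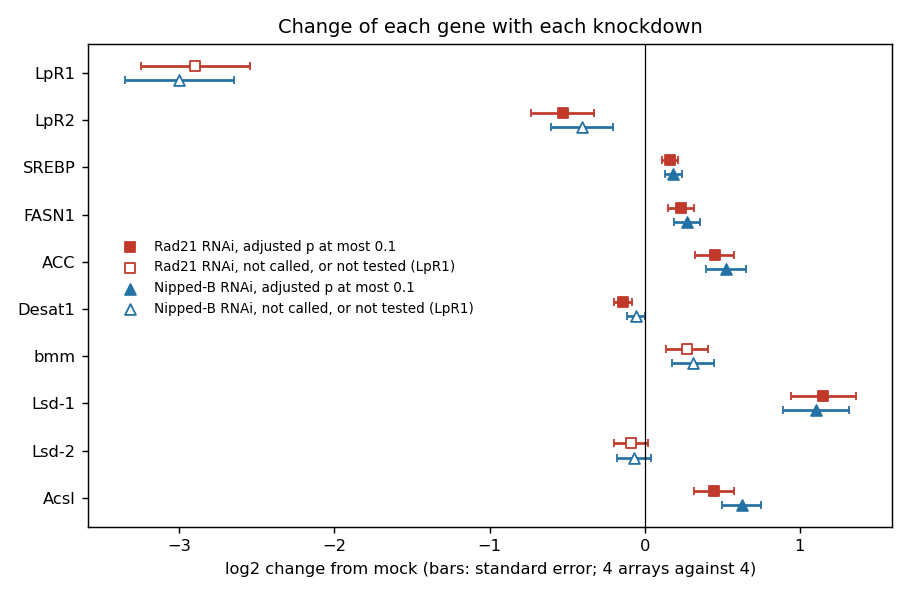
Difference from mock on the log2 scale (horizontal axis) for each of the 10 genes (vertical axis), as the estimate from the fit with its standard error (bars), for Rad21 RNAi (red squares) and Nipped-B RNAi (blue triangles) with 4 arrays against 4 mock arrays. Filled symbols passed an adjusted p of at most 0.1, open symbols did not, and LpR1 is open because it was chosen for this difference and was not tested. Lsd-1 lies above 1 with both knockdowns and LpR1 near -3, while the other 8 lie within 0.7 of 0.

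Of the genes for fatty acid synthesis, SREBP, ACC and FASN1 rose by small amounts with both knockdowns, and Desat1 did not. SREBP encodes the transcription factor that activates these enzymes in flies and is freed from the membrane when phospholipid is scarce. Its mock levels were 12.73 and 12.64 at day 3, 12.57 at day 4 and 12.36 at day 6, against 12.75, 12.83, 12.69 and 12.69 with Rad21 RNAi and 12.77, 12.78, 12.79 and 12.71 with Nipped-B RNAi in the same order. It was higher than mock in 4 of 4 replicates with each knockdown, by 0.16 (SE 0.053, limma adjusted p = 0.0369) with Rad21 RNAi and by 0.19 (SE 0.053, limma adjusted p = 0.0258) with Nipped-B RNAi. The mock array at day 6 was the lowest of all 12. The Rad21 call was lost without mock replicate 2 or Rad21 replicate 2.

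ACC encodes acetyl-CoA carboxylase, which makes the malonyl-CoA from which fatty acid chains grow. The mock arrays read 11.03 and 11.16 at day 3, 10.78 at day 4 and 10.31 at day 6. Rad21 RNAi arrays read 11.44, 11.53, 11.20 and 10.92 and Nipped-B RNAi arrays 11.36, 11.59, 11.40 and 11.02. ACC thus declined with the day of harvest in every treatment, and each knockdown array was above the mock array of its replicate. The rise was 0.45 (SE 0.13, limma adjusted p = 0.0205), or 1.37-fold, with Rad21 RNAi and 0.52 (SE 0.13, limma adjusted p = 0.0137), or 1.44-fold, with Nipped-B RNAi.

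FASN1, the fatty acid synthase that extends malonyl-CoA into long chains, followed the same course within a narrower range. Its mock levels ran from 14.00 to 14.50, its Rad21 RNAi levels from 14.35 to 14.66 and its Nipped-B RNAi levels from 14.45 to 14.67, and each knockdown array was above its mock counterpart. FASN1 rose by 0.23 (SE 0.082, limma adjusted p = 0.0467) with Rad21 RNAi and by 0.27 (SE 0.082, limma adjusted p = 0.0309) with Nipped-B RNAi. The Rad21 call was lost in 6 of the alternatives, 5 of which left out a single array (mock replicate 1 or 4, or Rad21 replicate 1, 2 or 3).

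Desat1, the desaturase that puts a double bond into newly made fatty acids, did not move with the enzymes that precede it. Its mock levels ran from 13.70 to 14.18, its Rad21 RNAi levels from 13.56 to 14.04 and its Nipped-B RNAi levels from 13.76 to 14.08. It fell by 0.14 (SE 0.059, limma adjusted p = 0.0826) with Rad21 RNAi, lower in 4 of 4 replicates, and differed by -0.06 (limma adjusted p = 0.475) with Nipped-B RNAi, lower in 2 of 4. The Rad21 call was lost in 10 alternatives, among them leaving out mock replicate 2, 3 or 4 or Rad21 replicate 1, 3 or 4, and centring each array on its median, where the adjusted p was 0.101.

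Acsl encodes a long-chain acyl-CoA synthetase, which attaches coenzyme A to fatty acids so that they can be stored, built into membranes or burned. The mock levels were 11.22 and 11.46 at day 3, 10.92 at day 4 and 11.13 at day 6. With Rad21 RNAi they were 11.48, 11.86, 11.63 and 11.56, and with Nipped-B RNAi 11.65, 12.18, 11.68 and 11.71. Neither knockdown's range overlapped that of mock, although the lowest Rad21 array came close to the highest mock array. Acsl rose by 0.45 (SE 0.13, limma adjusted p = 0.0204), or 1.37-fold, with Rad21 RNAi and by 0.62 (SE 0.13, limma adjusted p = 0.00611), or 1.54-fold, with Nipped-B RNAi.

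Among the genes of the lipid droplet, the perilipin Lsd-1, which lies on the droplet surface and lets lipases reach the stored fat, rose most. In mock cells it was at 5.51 and 6.52 at day 3, 7.18 at day 4 and 7.09 at day 6. Rad21 RNAi arrays were at 7.64, 7.62, 8.05 and 7.61, and all of them were above all mock arrays. Nipped-B RNAi arrays were at 7.08, 7.14, 8.48 and 8.03, and those of day 3 fell within the range of mock. Lsd-1 rose by 1.15 (SE 0.21, limma adjusted p = 0.00261), or 2.22-fold, with Rad21 RNAi and by 1.10 (SE 0.21, limma adjusted p = 0.0045), or 2.15-fold, with Nipped-B RNAi. By day, the difference with Rad21 RNAi was 1.61 at day 3, 0.86 at day 4 and 0.52 at day 6, and with Nipped-B RNAi it was 1.09, 1.29 and 0.93. The day 3 mock arrays differed from each other by more than any other replicates of a day did for this gene.

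Lsd-2, the other perilipin, which shields stored fat from lipolysis, gave no call. Its levels ran from 11.64 to 12.17 in mock, from 11.46 to 12.09 with Rad21 RNAi and from 11.50 to 12.15 with Nipped-B RNAi, and the ranges lay almost on top of each other. The differences were -0.09 (SE 0.11, limma adjusted p = 0.551) with Rad21 RNAi and -0.07 (SE 0.11, limma adjusted p = 0.653) with Nipped-B RNAi. Whether Lsd-1 and Lsd-2 respond differently was not tested.

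The lipase gene bmm, the fly counterpart of mammalian adipose triglyceride lipase, was higher than mock in 4 of 4 replicates with both knockdowns without passing the threshold. Its mock levels were 10.94 and 10.81 at day 3, 10.76 at day 4 and 10.30 at day 6, against 11.11, 11.19, 11.06 and 10.53 with Rad21 RNAi and 11.00, 10.91, 11.21 and 10.94 with Nipped-B RNAi. The differences were 0.27 (SE 0.14, limma adjusted p = 0.138) and 0.31 (SE 0.14, limma adjusted p = 0.106). With the replicate number as a block both passed, at an adjusted p of 0.0573 with Rad21 RNAi and 0.0396 with Nipped-B RNAi. Both also passed without mock replicate 3 or Rad21 replicate 4, and the Nipped-B value without Rad21 replicate 3 or Nipped-B replicate 4.

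The knockdowns were compared with each other directly. None of the 9 genes other than LpR1 was called (limma, and 0 of them at an unadjusted p under 0.05 as well). Of all tested probe sets 0.0952%, 7 of them, were called. LpR1 was chosen for its fall with both knockdowns, so its difference is given with no test. Averaged over day 3 and the later days, its Rad21 level exceeded its Nipped-B level by 0.10 (SE 0.35) on the log2 scale. This average covers differences of opposite sign. At day 3 the mean of LpR1 was 5.22 with Rad21 RNAi and 6.34 with Nipped-B RNAi. At day 4 the single arrays were at 6.05 and 5.26, and at day 6 at 7.55 and 5.69. The averaged differences of the other 9 genes ran from -0.18 for Acsl to 0.05 for Lsd-1. The precision for LpR1 was the lowest of the 10, so a difference of the size of its standard error cannot be resolved.

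Some of these genes differed between day 3 and the later days in mock cells. Each day has its own replicates, so the day of harvest and the replicate cannot be told apart. Between day 3 and days 4 and 6, 2 of the 9 genes other than LpR1 rose and 3 fell. Of all tested probe sets 14.4% rose and 20.8% fell. Lsd-1 rose by 1.12 (SE 0.30, limma adjusted p = 0.026), but by 0.62 without mock replicate 1, which did not pass (limma adjusted p = 0.114). Desat1 rose by 0.38 (SE 0.083, limma adjusted p = 0.0123). LpR2 fell by 0.74 (SE 0.28, limma adjusted p = 0.0887), ACC by 0.55 (SE 0.18, limma adjusted p = 0.0561) and SREBP by 0.22 (SE 0.075, limma adjusted p = 0.0604). LpR1 was chosen by its values on these same arrays, so its difference of -0.57 (SE 0.50) is given with no test. That value was set by the day 6 array, since without mock replicate 4 it was 0.05. With 2 mock arrays in each class these calls rest on few samples. Their number was 1 without mock replicate 1, 2 without mock replicate 2 or 4, and 8 without mock replicate 3. Centring the arrays on their medians left 3 calls, with LpR2 and SREBP no longer passing.

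The change of each knockdown effect between day 3 and the later days was tested as an interaction. For Rad21 RNAi 0 of the 9 genes other than LpR1 were called, where 1.24% of all tested probe sets were, and 0 of them had an unadjusted p under 0.05. For LpR1, which was chosen by its values on these same arrays, the interaction is given with no test: its difference from mock was smaller by 2.14 (SE 0.70) at days 4 and 6 than at day 3, and this value lay between 1.40 and 2.89 over all arrays left out in turn. For Lsd-1 the interaction was -0.92 (SE 0.42, limma adjusted p = 0.369), a smaller rise at the later days. For Nipped-B RNAi 0 of the 9 were called and 0 had an unadjusted p under 0.05, where 0.34% of all tested probe sets were called, and the interaction of LpR1 was -0.30 (SE 0.70).

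The 6 genes whose log2 values ran most closely with those of LpR1 over the 12 arrays were Nop10 (r = 0.981), Nlp (r = 0.979), rept (r = 0.979), Rbm13 (r = 0.978), pths (r = 0.977) and Nle (r = 0.977), out of 6399 other tested probe sets of a single gene. Nop10 encodes a protein of the particles that modify ribosomal RNA, and Nlp a nucleoplasmin-like histone chaperone. The differences of these 6 from mock ran from -1.14 to -0.52 with Rad21 RNAi and from -1.14 to -0.45 with Nipped-B RNAi, so none fell as far as LpR1. These correlations are descriptions, since all arrays share the split between mock and knockdown cells. Of the other 9 genes, LpR2 had r = 0.41 with LpR1, Desat1 0.26 and Lsd-2 0.14, while Lsd-1 had -0.75 and Acsl -0.71. In all, 1580 probe sets ran more closely with LpR1 than its neighbour LpR2 did.

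To set the 10 genes in their pathway, 9 further lists with 125 genes of lipid biology were drawn up, of which 103 could be matched to a probe set and 63 passed the filter. With Rad21 RNAi 20 of the 63 rose and 19 fell, and the median difference was 0.07, beside 0.04 over all tested probe sets. With Nipped-B RNAi 18 rose and 13 fell, and the median was 0.10, beside 0.05. Of all tested probe sets 27.3% rose and 24.1% fell with Rad21 RNAi, and 24.4% rose and 19.9% fell with Nipped-B RNAi. The shares of the 63 are not far from these, and the same shares belong beside the counts of each list below. The lists were drawn up with earlier results of these data known. Their counts describe the listed genes, and nothing is read from them about a pathway.

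The list of lipoproteins and lipid carriers held more rises than falls. Of its 8 tested genes 7 rose and 0 fell with Rad21 RNAi, where 27.3% of all tested probe sets rose and 24.1% fell. With Nipped-B RNAi 6 rose and 0 fell, where 24.4% of all tested probe sets rose and 19.9% fell. The medians were 0.34 and 0.27. Apoltp, which encodes the protein of the lipid transfer particle that loads lipophorin, was at 11.65 and 11.83 at day 3, 10.35 at day 4 and 10.18 at day 6 in mock cells. It was at 12.92, 12.96, 12.23 and 11.99 with Rad21 RNAi and at 12.58, 12.94, 11.73 and 12.40 with Nipped-B RNAi. Each knockdown array was above the mock array of its replicate by more than 0.9, and the Nipped-B day 4 array lay within the range of mock. The rise was 1.52 (SE 0.15, limma adjusted p = 0.000117), or 2.88-fold, and 1.41 (SE 0.15, limma adjusted p = 0.000303), or 2.66-fold.

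GLaz, a lipocalin related to mammalian apolipoprotein D, read 9.31, 9.27, 8.95 and 8.76 in mock cells. It read 10.36, 10.39, 9.98 and 9.72 with Rad21 RNAi and 9.91, 9.89, 9.85 and 9.75 with Nipped-B RNAi, with no overlap with mock. It rose by 1.04 (SE 0.074, limma adjusted p = 3.78e-05) and by 0.78 (SE 0.074, limma adjusted p = 0.000222). Npc1a, which moves sterol out of late endosomes, rose by 0.56 and 0.40, and fabp, a cytoplasmic fatty acid binding protein, by 0.36 and 0.30. The core lipophorin gene apolpp itself was not detected above background, with a highest log2 value of 2.45. The only other measured gene of the low density lipoprotein receptor family that was tested, cue, fell by 0.61 (SE 0.16, limma adjusted p = 0.0158) with Rad21 RNAi and differed by -0.30 (limma adjusted p = 0.181) with Nipped-B RNAi. The vitellogenin receptor gene yl stayed at or under 2.25.

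**Figure D3:**
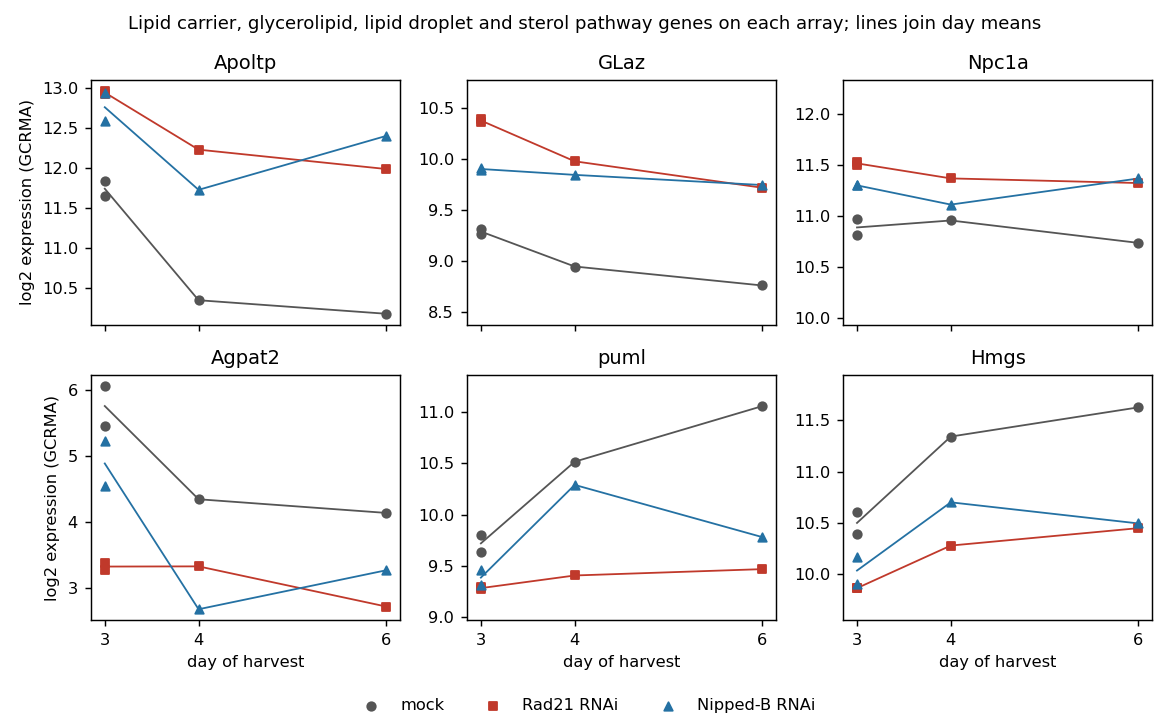
Log2 expression (vertical axis, GCRMA units) against the day of harvest (horizontal axis) for 6 genes of the further lipid lists, drawn as in the plot of the 10 genes. Apoltp, GLaz and Npc1a are higher in knockdown than in mock cells at each day, Agpat2, puml and Hmgs lower, and mock levels of puml and Hmgs climb from day 3 to day 6.

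Of 3 tested genes for sterol and isoprenoid synthesis, 2 fell with each knockdown, and 1 rose with Rad21 RNAi. Flies make no sterol of their own and use this pathway for isoprenoids. Hmgs, HMG-CoA synthase, fell by 0.88 (SE 0.098, limma adjusted p = 0.000208) with Rad21 RNAi and by 0.68 (SE 0.098, limma adjusted p = 0.00115) with Nipped-B RNAi. Fpps, farnesyl pyrophosphate synthase, fell by 0.87 and by 0.51. In mock cells both climbed with time, Hmgs by 0.99 and Fpps by 1.21 between day 3 and the later days, and the knockdown arrays of each replicate were lower throughout. The third tested gene, qm, which encodes geranylgeranyl pyrophosphate synthase, went the other way, with a rise of 0.47 (SE 0.16, limma adjusted p = 0.0477) with Rad21 RNAi and a difference of 0.32 (limma adjusted p = 0.168) with Nipped-B RNAi that passed with the replicate block (adjusted p = 0.0148).

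Of 15 tested genes for glycerolipid and phospholipid synthesis, 3 rose and 5 fell with each knockdown. Agpat2, an acyltransferase that makes phosphatidic acid, fell from 5.46 and 6.05 at day 3, 4.34 at day 4 and 4.13 at day 6 in mock cells to between 2.72 and 3.37 with Rad21 RNAi, close to background. With Nipped-B RNAi it was at 5.23, 4.54, 2.67 and 3.27. It fell by 1.83 (SE 0.24, limma adjusted p = 0.000448) and by 1.07 (SE 0.24, limma adjusted p = 0.0087) on the log2 scale, and no fold is given because the low values sit near the floor of the scale. With values under log2 4 set to 4, the differences were -0.996 and -0.554 and both still passed. The ethanolamine kinase gene eas fell by 0.52 and 0.49, and Pisd, which makes phosphatidylethanolamine from phosphatidylserine, by 0.53 and 0.44. Pect, which acts after eas in the same route, differed by 0.31 with each knockdown and did not pass (limma adjusted p = 0.116 and 0.128). Pis, which makes phosphatidylinositol, rose by 0.32 and 0.27.

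Of 5 further droplet and lipase genes tested, 3 fell with Rad21 RNAi and 1 with Nipped-B RNAi, and 0 rose in either. The co-activator of bmm, puml (pummelig, the fly counterpart of mammalian ABHD5), was at 9.80, 9.63, 10.52 and 11.06 in mock cells, at 9.29, 9.27, 9.40 and 9.47 with Rad21 RNAi, and at 9.46, 9.31, 10.29 and 9.78 with Nipped-B RNAi. It climbed in mock cells and stayed nearly level with Rad21 RNAi. It fell by 0.90 (SE 0.14, limma adjusted p = 0.00115) and by 0.55 (SE 0.14, limma adjusted p = 0.0164). Jabba, which holds histones on droplets in the embryo, was lower by 0.40 on average (SE 0.13, limma adjusted p = 0.0318) with Rad21 RNAi. It differed by 0.11 (limma adjusted p = 0.556) with Nipped-B RNAi. In mock cells Jabba climbed from 7.94 and 8.03 at day 3 to 8.64 at day 4 and 9.12 at day 6. With Rad21 RNAi it stayed nearly level, at 7.87, 7.97, 8.19 and 8.09, so the difference arose at the later days. The lipase Lip4, near background at 4.24 ± 0.40 (SD, n = 4) in mock cells, was under log2 4 on all 4 Rad21 arrays and passed the filter mostly through mock arrays. Its difference of -0.89 with Rad21 RNAi is counted among the falls above, but with values under log2 4 set to 4 it was -0.33 and did not pass (limma adjusted p = 0.13).

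Fatty acid oxidation was divided, with 5 of 12 genes up and 5 down with Rad21 RNAi and 4 up and 4 down with Nipped-B RNAi. Several enzymes of the mitochondrial route fell: Echs1, an enoyl-CoA hydratase, by 0.61 and 0.50, CPT2, the inner carnitine palmitoyltransferase, by 0.39 and 0.36, and Acadvl, an acyl-CoA dehydrogenase for very long chains, by 0.44 and 0.31. The outer carnitine palmitoyltransferase whd, near background at 4.11 ± 0.17 (SD, n = 4) in mock cells, rose by 0.48 (SE 0.14, limma adjusted p = 0.0205) and 0.38 (SE 0.14, limma adjusted p = 0.057). The Nipped-B call of whd was lost without any 1 of 6 arrays.

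Among 9 tested genes for SREBP processing and lipid gene control, 2 rose and 1 fell with Rad21 RNAi and 3 rose and 0 fell with Nipped-B RNAi. Mondo, the partner of Mlx in sugar sensing, rose by 0.33 (SE 0.074, limma adjusted p = 0.00664) and 0.30 (SE 0.074, limma adjusted p = 0.0137). The protease gene S2P, which can cut SREBP free, fell by 0.18 (limma adjusted p = 0.0397) with Rad21 RNAi and differed by -0.13 (limma adjusted p = 0.109) with Nipped-B RNAi. Sec24AB, a subunit of the vesicle coat that leaves the endoplasmic reticulum, rose by 0.18 (limma adjusted p = 0.0976) and 0.20 (limma adjusted p = 0.0698), calls that most alternatives removed. Hnf4, a nuclear receptor for fatty acids, was higher by 0.20 on average (limma adjusted p = 0.0463) with Nipped-B RNAi. This did not pass with the replicate block (adjusted p = 0.214). With Rad21 RNAi Hnf4 differed by 0.15 (limma adjusted p = 0.103). Its day 3 levels were 10.14 and 9.97 in mock cells, and 9.91 and 10.03 with Nipped-B RNAi. At the later days they were 9.05 and 8.94 in mock cells, and 9.51 and 9.44 with Nipped-B RNAi. The averaged rise with Nipped-B RNAi thus arose at the later days. In mock cells Hnf4 fell by 1.06 between day 3 and the later days (limma adjusted p = 0.000439).

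In the list for synthesis, elongation and NADPH supply, 7 of 19 genes with a probe set were tested, since ATPCL, FASN2, FASN3, Desat2 and several elongases were at background. With each knockdown 2 of the 7 rose and 1 fell. Cyt-b5, which hands electrons to desaturases, fell by 0.39 (SE 0.085, limma adjusted p = 0.00614) and 0.34 (SE 0.085, limma adjusted p = 0.0155). Idh, which supplies NADPH, rose by 0.17 and 0.16, and Sc2, the enoyl-CoA reductase of elongation, by 0.15 and 0.14. In the list for uptake and activation, CG3961 fell by 0.39 (SE 0.13, limma adjusted p = 0.0454) with Rad21 RNAi and differed by 0.10 (limma adjusted p = 0.587) with Nipped-B RNAi, and the other 2 tested genes gave no call.

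**Figure D4:**
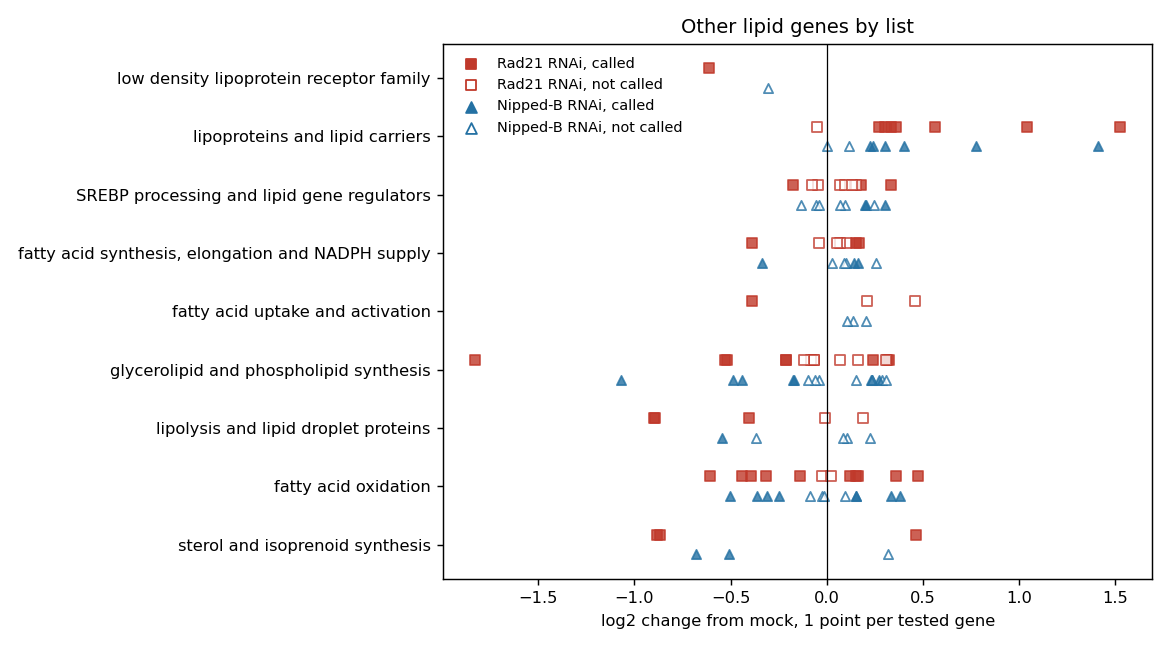
Difference from mock on the log2 scale (horizontal axis) for each tested gene of the 9 further lipid lists (vertical axis), for Rad21 RNAi (red squares) and Nipped-B RNAi (blue triangles). Filled symbols passed an adjusted p of at most 0.1. The lipid carriers lie to the right, with Apoltp at 1.52 and 1.41, while the glycerolipid list reaches from -1.83 to 0.32 with Rad21 RNAi.

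Markers of blood cells, which also handle lipid, were examined beside these genes. Of 10 haemocyte markers 5 (Hml, He, NimC1, PPO1 and PPO2) were under log2 4 on every array. The log2 of the summed level of the 10 was 13.01 to 13.46 in mock cells, 13.51 to 13.85 with Rad21 RNAi and 13.42 to 13.86 with Nipped-B RNAi. It was thus somewhat higher with Rad21 RNAi, while the Nipped-B range overlapped that of mock. The sum is carried by the brightest probe set, that of srp, and so mostly repeats its level. Of the 5 tested, 3 rose and 1 fell with Rad21 RNAi, where 27.3% of all tested probe sets rose and 24.1% fell. With Nipped-B RNAi 2 rose and 1 fell, where 24.4% of all tested probe sets rose and 19.9% fell. The haemocyte factor srp rose by 0.48 and 0.43 and the peroxidasin gene Pxn by 0.44 and 0.34, while Sr-CI was under log2 4 on all mock arrays and reached it only on late knockdown arrays, so that its call with Rad21 RNAi is a difference against background. The phagocytosis receptor eater differed by -2.25 and -1.74 on average, both past the threshold. It was under log2 4 on all late knockdown arrays, and above log2 4 on all mock and all day 3 knockdown arrays. At day 3 each knockdown array was below the mock array of its replicate by less than these averages. The averages therefore rest mostly on late differences against background. The summed level of 7 glial markers, which is carried by the brightest probe sets, was 13.65 to 13.91, 13.86 to 13.95 and 13.81 to 14.11, while single markers moved more. Of these nrv2 rose by 0.50 and 0.48, past the threshold. The differences of wrapper were -2.16 and -2.22. This gene was under log2 4 on all knockdown arrays and passed the filter only through mock arrays. Its calls are therefore differences against background. The summed level of 8 neuron markers was 10.53 to 11.70, 10.10 to 11.07 and 10.27 to 11.21. Of the 2 measurable ones cpx fell by 0.75 and by 0.49, past the threshold, and elav differed by 0.56 and 0.38 without passing (limma adjusted p = 0.204 and 0.402). The part of such shifts in the lipid genes was not tested. Fat body markers summed to 5.27 to 5.29 on all arrays, which is background.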

How the data were processed

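The study's 12 arrays were hybridised with total RNA of BG3 cells, 4 per treatment. The deposited values are log2 expression that the authors computed with GCRMA (version not given in the sources used here). A table of the dsRNA primers was not used. Of the 18952 probe sets, 183 are controls and were set aside. The rest were named through the platform annotation and a RefSeq table of Release 6, which gave 1 gene for 13646, several for 402 and none for 4721. No genome build is named for the values, so no coordinates are printed. A probe set entered the tests if 2 or more arrays reached log2 4.

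A linear model of 6 means (mock, Rad21 and Nipped-B, each early and late) was fitted by limma 3.58.1 under R 4.3.3, with eBayes and a variance trend, and contrasts were tested two-sided, with Benjamini-Hochberg adjustment over 7350 probe sets. Replicates are labelled as biological, and their number limits the precision, as arrays have no depth. Same-numbered arrays deviated together from the means of treatment and time class (r from 0.36 to 0.66 over the tested probe sets). Each class holds 2 arrays of a treatment, so replicates 1 and 2 give the same r, as do 3 and 4. In the late class the deviation is also the difference between days 4 and 6, so r cannot tell pairing from day there. The main fit does not use the pairing, and a fit with the replicate block was an alternative. The others were no filter or a limit of log2 5, no trend, centred arrays, values under log2 4 set to 4, a threshold of 0.05, and each array left out in turn. The fit was tested on simulated data.

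The 10 genes and all lists were chosen with earlier results of these data known. Named are the 10 genes, the 6 most correlated with LpR1, and up to 4 called genes of each list with the largest mean change. Neighbours and untested genes were added by position or list. Of several probe sets of a gene, the one with the highest mean over all arrays stands for it. CCT1 and CCT2 were dropped from the glycerolipid list because these symbols name chaperonin subunits in the gene table. SREBP, Desat1 and Acsl are read by probe sets that can also bind related transcripts. Tables and figures used Python 3.11.15, pandas 2.3.3, numpy 2.4.6 and matplotlib 3.10.9.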

Additional observations from a re-analysis of the deposited data

Results flagged for a closer look

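In each of the 30 groups of 4 arrays, formed by the 10 genes and 3 treatments, the highest and lowest array were compared with the other arrays by Dixon's criterion, which chance exceeds in about 1 in 20 groups. It was exceeded in 3 groups. LpR1 in mock replicate 4 (day 6) was at log2 8.01, when the other mock arrays were at 9.08 to 9.30. Lsd-1 in Rad21 replicate 3 (day 4) was at 8.05, against 7.61 to 7.64 on the other Rad21 arrays. Acsl in Nipped-B replicate 2 (day 3) was at 12.18, against 11.65 to 11.71.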

How the results depend on the processing

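Over the alternatives tried for the 10 genes and the named list genes, 1458 values kept their direction and their side of the threshold. Another 109 lost a call, 26 gained one and 6 changed sign. Among the 1458, values of LpR1 against mock have no threshold and counted as kept when they moved by less than the SD of the fit. The 26 include the change of the Rad21 effect on LpR1 with time, without mock replicate 3, which is given with no test. The 6 that changed sign were differences without a call, given here as their range over the arrays left out. Lsd-2 ran from -0.19 to 0.017 with Rad21 RNAi and from -0.17 to 0.034 with Nipped-B RNAi, both above 0 without mock replicate 4. Jabba with Nipped-B RNAi ran from -0.014 to 0.23, below 0 without mock replicate 3 or Nipped-B replicate 4. CG3961 with Nipped-B RNAi ran from -0.035 to 0.24, below 0 without mock replicate 3. LpR1 over time in mock cells ran from -1.18 to 0.047, above 0 without mock replicate 4, which is imprecise rather than small. The count of called genes among the 9 with Rad21 RNAi was 7, and 4 with no filter, where 18769 probe sets share the adjustment. It ranged from 4 to 7 over single arrays left out, and the Nipped-B count of 5 from 5 to 6. In mock cells over time the count of 5 was 2 with no filter, 3 with centred arrays and 2 at a threshold of 0.05, and 1 to 8 over arrays left out. The cause of these losses was not tested beyond the number of probe sets and arrays. For the change of the Rad21 effect with time the count was 0 to 1, the 1 being LpR1, which was chosen by its values on these arrays. Called genes of the further lipid lists numbered 39 with Rad21 RNAi (29 to 40 over arrays left out) and 31 with Nipped-B RNAi (22 to 35, and 21 with no filter). Leaving out single mock or knockdown arrays also ended calls of CG3961, qm, Idh, Sc2, S2P, Sec24AB, Hnf4 and whd, and let cue, Hnf4, S2P and qm pass in the knockdown where they had not. With the replicate block the member counts were 8 and 7, those of the lipid lists 41 and 32, and those of the comparison between knockdowns and of both changes with time 0. No block could be fitted for mock cells alone over time. The other probe set of LpR1 is at background and gives no value. Levels near log2 2 to 4 cannot be resolved, which limits Agpat2, Lip4 and whd.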
